A study of Mus musculus with 4 samples.

Results

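Leukocytes are the white blood cells of the immune system, and the ovary holds macrophages, dendritic cells and lymphocytes that take part in ovulation and in the formation of the corpus luteum. Macrophages are known by receptors for antibodies, chemokines, growth factors and sugars on their surface, by lysosomal enzymes and by the complement protein C1q, while B and T cells are known by the signalling chains of their antigen receptors. A chromatin loop is a pair of distant sites on a chromosome that touch more often than their surroundings do, and its 2 sites are called anchors. The genes described here are 32 leukocyte marker genes, each looked up in the chromatin loops of mouse granulosa cells, the follicle cells that surround the oocyte. A gene had a loop when an annotated end of the gene lay within 2.5 kb of an anchor. All 32 genes were placed on the mouse genome (build mm10, autosomes and X), and 16 of them had a loop in at least 1 of 4 libraries. Of all 21631 protein-coding genes, 9139 had one (42.2%), so the share among the markers was near that of genes in general.

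Loops were mapped by Micro-C, which cuts chromatin with micrococcal nuclease and sequences the pieces that were close together, on granulosa cells collected by puncturing the ovaries of 21-day-old mice. The strain is not given in the sources used here. Every mouse, controls included, had been given eCG (5 IU of equine chorionic gonadotropin, the hormone PMSG), which makes follicles grow, for 46 h according to one label and 44 h according to another. The PMSG group (2 libraries) was collected with no further hormone, at 0 h of hCG, and the hCG group (2 libraries) at 6 h after 5 IU of human chorionic gonadotropin (hCG), which takes the place of the natural luteinizing hormone surge before ovulation. The libraries hold 2 to 3 technical replicates that are not given apart, and nothing says that they came from separate mice, so every p-value measures only the spread between these libraries, which may be technical.

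The lists held 8305 and 6533 loops in PMSG replicates 1 and 2 and 7664 and 7935 loops in hCG replicates 1 and 2. Contacts at the called pixels summed to between 272470 (PMSG replicate 2) and 393852 (PMSG replicate 1), a sum that follows the length of each list. The sequencing depth of the libraries is not known from these lists, and a library can miss a loop that lies below the caller's threshold. No RNA was measured, so whether any of these genes was expressed, and in which cells, was not measured here. Among marker lists of the cells that such a preparation could hold, 12 of 14 granulosa genes had a loop, 7 of 10 theca and stroma genes, 4 of 10 oocyte genes and 2 of 10 endothelial genes. In these bulk libraries a contact made in more cells and a contact made more often per cell cannot be told apart, nor can the contacts of granulosa cells and of leukocytes among them.

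Loops of different libraries were counted as 1 distinct loop when both anchor midpoints lay within 20 kb. The 4 lists then held 12920 distinct loops, of which 652 were called in each hCG library and in no PMSG library (hCG-only), 491 the other way round (PMSG-only), and 3859 in all 4. The markers lay at 25 of them. The macrophage lectin gene Mgl2 and the B cell kinase gene Blk had hCG-only loops, Blk and the lysozyme gene Lyz2 had PMSG-only loops, and loops of all 4 libraries lay at Fcer1g, Spi1, Blk, C1qa and C1qc.

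In the RefSeq promoter table, 4 markers had their whole promoter window inside an anchor: Mgl2 and Cd68 in hCG replicate 1, Cx3cr1 in PMSG replicate 1 and C1qc in PMSG replicate 2. The windows of Mgl2 and Cx3cr1 are shown because their anchors held no end of another gene. Each window is the 250 bases before an annotated transcript start, from RefSeq on GRCm38.p6, the assembly of mm10, and is written 5′ to 3′ on the gene's strand. The capitals mark the PU box GAGGAA, the core letters bound by the myeloid factor PU.1, searched on both strands. The Mgl2 window is chr11:70130107-70130356, plus strand, and the Cx3cr1 window is chr9:120068297-120068546, minus strand. Most of the Mgl2 window, with its marked letters, lies inside the gene as placed here (chr11:70130125-70137542). It thus precedes a transcript start inside the gene, not the outer end of the gene.

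Mgl2: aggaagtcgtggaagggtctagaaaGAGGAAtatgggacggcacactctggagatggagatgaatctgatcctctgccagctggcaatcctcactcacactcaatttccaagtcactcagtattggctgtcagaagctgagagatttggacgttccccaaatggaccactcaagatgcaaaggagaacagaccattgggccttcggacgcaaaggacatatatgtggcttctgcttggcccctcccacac

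Cx3cr1: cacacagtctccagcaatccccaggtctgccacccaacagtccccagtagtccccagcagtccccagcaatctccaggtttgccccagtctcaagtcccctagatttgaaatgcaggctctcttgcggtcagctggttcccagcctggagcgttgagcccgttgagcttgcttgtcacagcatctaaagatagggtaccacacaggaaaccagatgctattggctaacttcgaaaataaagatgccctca

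The Mgl2 window held 1 PU box and the Cx3cr1 window none. Of 32851 promoter windows of the same length, 7639 (23.3%) held one, so a match is common. The Cd68 and C1qc windows held 1 each. A match of letters is no evidence that a factor was bound.

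Across the libraries the number of markers with a loop did not differ between the groups beyond its spread. There were 7 of 32 in each PMSG library, 10 in hCG replicate 1 and 7 in its replicate 2. As shares these were 21.9%, 21.9%, 31.2% and 21.9%, with Wilson 95% intervals of 11.02% to 38.8% for 7 genes and 17.95% to 48.6% for 10, which cover counting error only. Among all protein-coding genes the shares were 27.2%, 21.7%, 26.6% and 27.0%, inside those intervals in every library. Only hCG replicate 1 stood above the rest, and the groups overlapped. The mean was 7 ± 0 genes in PMSG and 8.5 ± 2.12 in hCG (SD, n = 2), a difference of 1.5 (two-sided exact permutation test over libraries, p = 1, where the smallest p that 2 against 2 allows is 0.333). The difference was 0 without hCG replicate 1, and it was -1.5 when a gene end within 10 kb was enough.

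**Figure D1:**
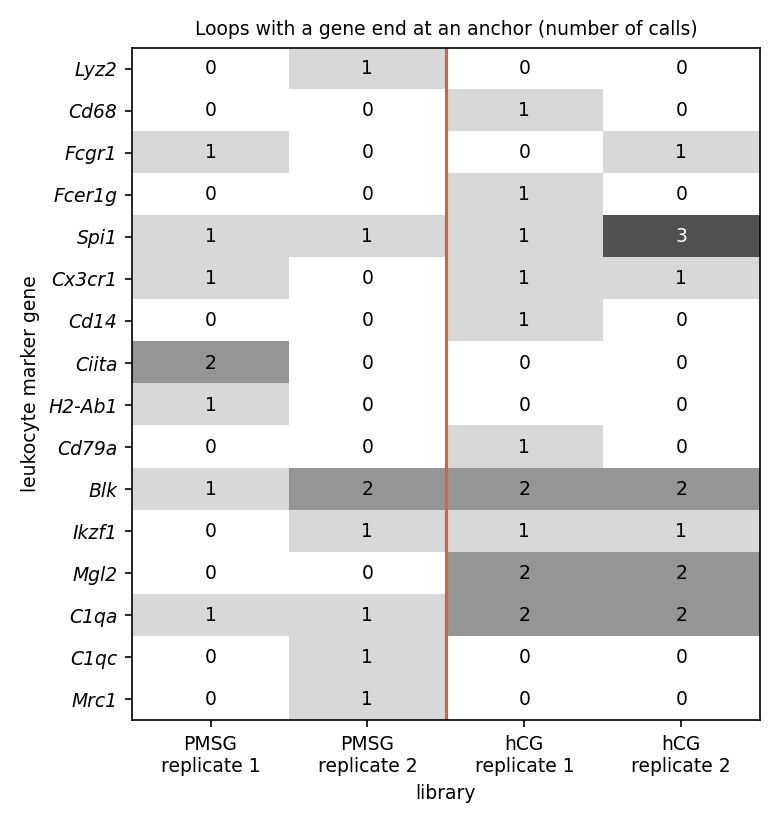
Number of called loops with an end of the gene within 2.5 kb of an anchor, for the 16 leukocyte markers that had a loop (vertical axis) in each library (horizontal axis). Darker cells hold more loops, and the vertical line parts the PMSG from the hCG libraries. Spi1, Blk and C1qa had a loop in all 4 libraries, Mgl2 had 2 in each hCG library and none in the PMSG libraries, and 9 genes had a loop in 1 library.

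Which markers had a loop changed from library to library more than the count did. The map of loop numbers by gene and library shows that Spi1, Blk and C1qa had one in all 4 libraries (3 of 16, 18.75%, where 27.3% of all genes with a loop did). Lyz2, Cd68, Fcer1g, Cd14, Ciita, H2-Ab1, Cd79a, C1qc and Mrc1 had one in 1 library (9 of 16, 56.2%, where 31.7% of all genes with a loop did). Fcgr1 and Mgl2 had one in 2 libraries, and Cx3cr1 and Ikzf1 in 3. Mgl2 was the marker with loops in each hCG library and in no PMSG library (1 of 16, where 5.39% of all genes with a loop had that pattern). No marker had the reverse pattern, which 3.29% of all genes with a loop had.

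Relative to the length of each list, both hCG libraries had more loops at markers than either PMSG library, in a design too small for that to pass a test. PMSG replicates 1 and 2 had 8 and 7, and hCG replicates 1 and 2 had 13 and 12, which is 0.963, 1.07, 1.70 and 1.51 per 1000 called loops. The groups did not overlap. The mean was 1.02 ± 0.0765 in PMSG and 1.60 ± 0.130 in hCG (SD, n = 2), a ratio of 1.58 and a difference of 0.587 (two-sided exact permutation test, p = 0.333, the smallest that the design allows). Loops at the ends of any protein-coding gene were 572, 552, 592 and 579 per 1000, a ratio of 1.04. Of the 13 and 12 loops in the hCG libraries, 4 were those of Mgl2 and 2 those that joined Blk to Gata4 after hCG. The difference rested on how near a gene end had to be, since it was 0.0931 with the end inside the anchor and -0.105 when an anchor anywhere in the gene counted.

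The loops at markers had lower median spans in the hCG libraries, again with no p under 0.05 possible. The median span, the distance between anchor midpoints, was 235 kb and 180 kb in PMSG replicates 1 and 2 and 100 kb and 135 kb in hCG replicates 1 and 2, with no overlap of the groups. The difference of the means was -90 kb (207.5 ± 38.9 kb against 117.5 ± 24.7 kb, SD, n = 2; two-sided exact permutation test, p = 0.333, the smallest that the design allows). Loops at any gene had median spans of 160, 170, 130 and 145 kb, also without overlap, a difference of -27.5 kb. The markers' difference was -27.5 kb when the gene end had to lie inside the anchor. The value of all genes was computed with the limit of 2.5 kb only, so the 2 are not under the same rule. Contact enrichment, the observed contacts over those expected from the surrounding donut of pixels, had medians of 3.46, 4.15, 4.55 and 3.63 at marker loops and 3.34, 3.72, 3.63 and 3.55 at all gene loops.

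**Figure D2:**
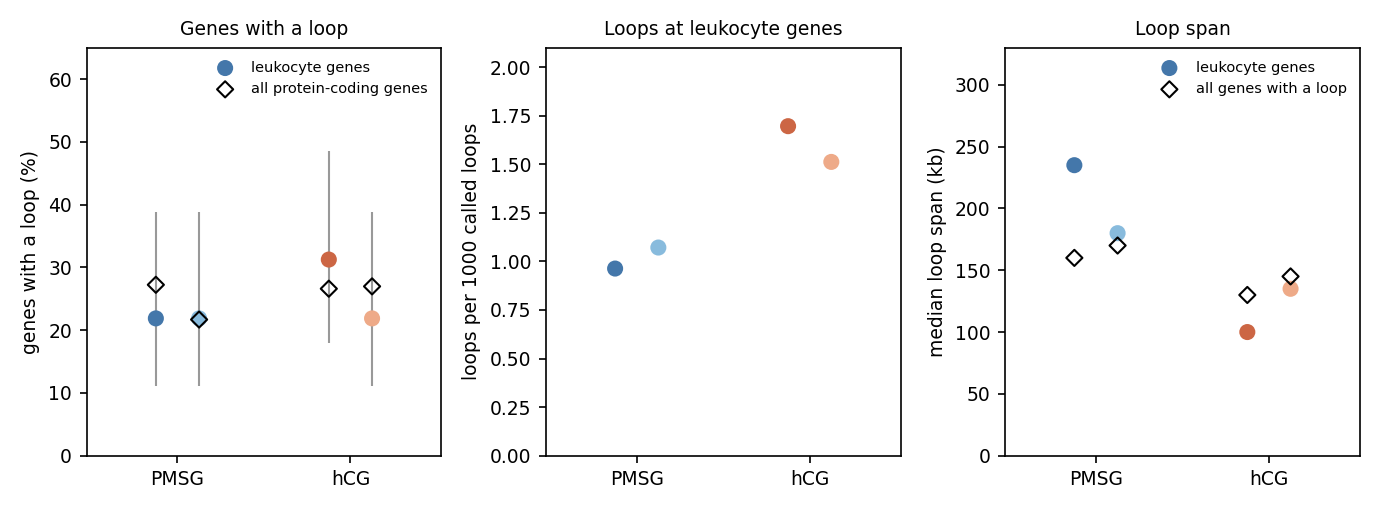
Left, share of genes with a loop in % for the 32 leukocyte markers (filled, with Wilson 95% intervals) and for all protein-coding genes (open diamonds). Middle, loops at leukocyte markers per 1000 called loops, and right, median span in kb of loops at markers (filled) and at all genes (open diamonds). Points are single libraries, replicate 1 left and darker, replicate 2 right and paler, and the hCG libraries lie above PMSG in the middle panel and below it in the right panel.

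By class, the markers' shares can be set beside those of all genes with a loop. An hCG-only loop lay at 2 of the 16 markers with a loop (12.5%), against 8.31% of genes. A PMSG-only loop lay at 2 (12.5%), against 5.46% of genes. Loops of all 4 libraries lay at 5 (31.2%), against 41.8% of genes. Each of these differences from the background amounts to fewer than 2 genes. With 1 library left out a class needs fewer calls, and the hCG-only class then held 5 markers without PMSG replicate 1 (21.5% of all genes with a loop), 4 without hCG replicate 1 (25.7%) and 6 without hCG replicate 2 (24.7%). The PMSG-only class held 4 without PMSG replicate 1 (15.6%) and 4 without PMSG replicate 2 (25.1%). The other 15 of the 25 distinct loops, at 11 markers, were in 1 to 3 libraries without following the groups.

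Mgl2 encodes a C-type lectin of macrophages and dendritic cells that binds galactose-type sugars. It lies at chr11:70130125-70137542 on the plus strand, between the related lectin genes Asgr2 and Clec10a. A loop of 130 kb passed over the gene in all 4 libraries, from an anchor starting at 70070001 to one starting at 70200001, with no gene end at either. It had 28 observed against 7.70 expected contacts in PMSG replicate 1, 45 against 9.84 in PMSG replicate 2, 22 against 3.94 in hCG replicate 1 and 28 against 4.63 in hCG replicate 2. The ratios of 3.64, 4.57, 5.58 and 6.05 were higher in the hCG libraries, which was not tested. They come from bins of unequal size, 10 kb in PMSG replicate 2 and 5 kb in the rest. PMSG replicate 1 had a second call of the same distinct loop, of 160 kb, with 98 against 20.6 (ratio 4.76).

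Inside that loop, both hCG libraries had a further anchor at Mgl2, joined to each side. The left loop ran from chr11:70080001-70090000 to chr11:70130001-70140000 in hCG replicate 1, with 43 contacts against 14.1 expected (ratio 3.04, exact Poisson 95% interval 2.20 to 4.10). In hCG replicate 2 it ended at chr11:70140001-70150000, with 52 against 19.3 (2.69, 2.01 to 3.53). The right loop ran from chr11:70140001-70150000 to the bin starting at 70190001 in hCG replicate 1, with 52 against 13.7 (3.81, 2.84 to 4.99), and to the bin starting at 70200001 in hCG replicate 2, with 47 against 17.5 (2.68, 1.97 to 3.57). The whole of Mgl2, with the promoter window printed above, lay in the left anchor of hCG replicate 1, while the other 3 anchors began 2459 bp past the end of the transcript. These were the values nearest to the limit of 2.5 kb from inside, as 2541 bp at Lyz2 in PMSG replicate 1 was from outside. In the PMSG libraries no anchor lay at Mgl2, the nearest being 15125 bp away in PMSG replicate 1 and 50125 bp away in PMSG replicate 2. A pixel that was not called has no count in the lists, so the contacts of the PMSG libraries at these pixels are not known. The nearest anchor in PMSG replicate 1 belonged to a 35 kb loop from chr11:70075001-70080000 to chr11:70110001-70115000. It had 26 contacts against 11.6 expected (ratio 2.25) and was not joined to the left loop at the match distance used. Mgl2 was still at an hCG-only loop with both other match distances, an FDR of 0.01, lists of equal length, a gene end needed in 2 libraries and bins of 5 and 10 kb alone, and at none when the anchors themselves had to overlap. At an FDR of 0.01 this was the right loop, since the left loop had a largest q-value of 0.0259 in hCG replicate 2. With the wider match distance the hCG-only loop was also the right one, because the left loop then matches the 35 kb call.

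**Figure D3:**
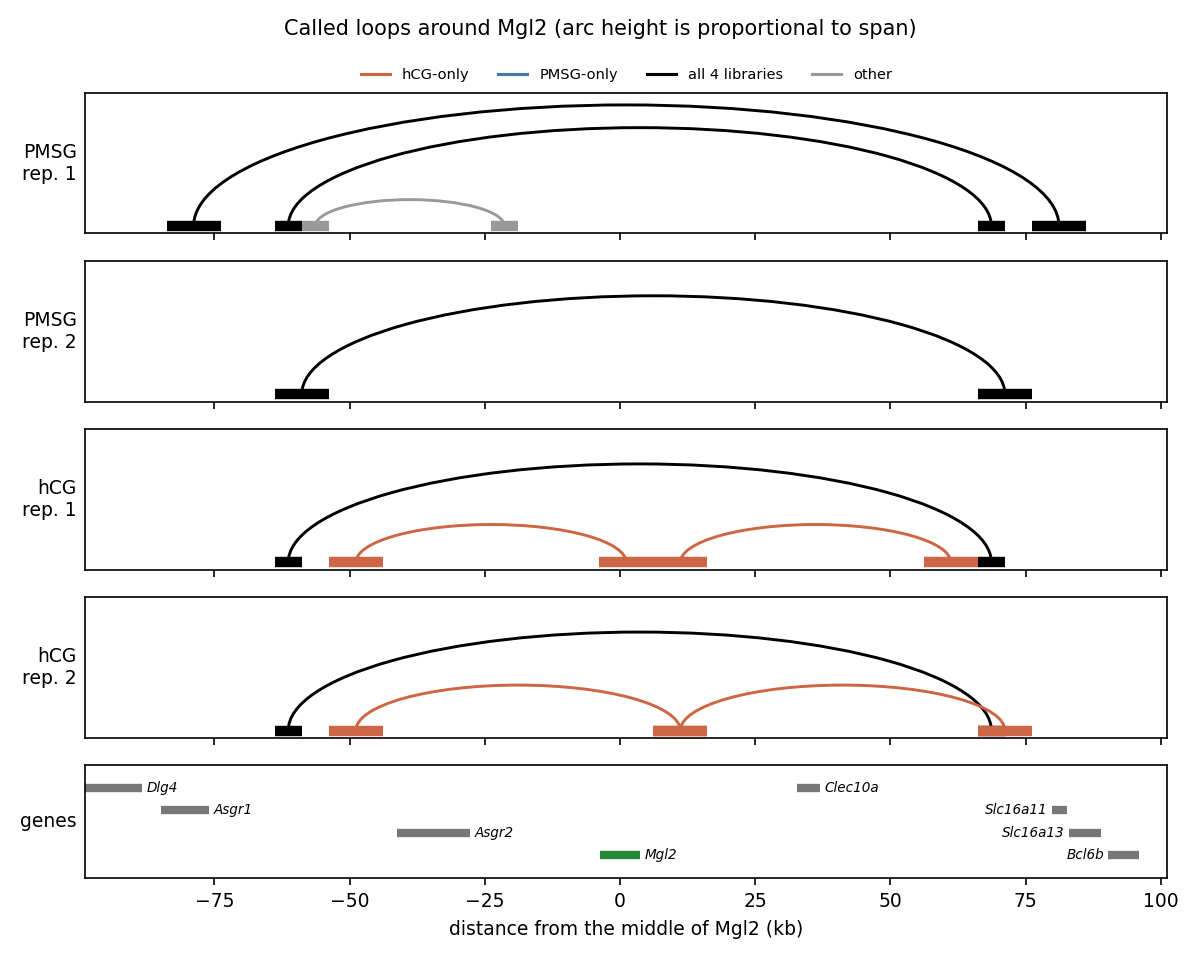
Called loops around Mgl2 in each library, as arcs between anchors (thick bars), with protein-coding genes below. The horizontal axis is the distance from the middle of Mgl2 in kb, arc height follows the span, and the outer arc in PMSG replicate 1 was joined to the same distinct loop as the 130 kb arc. The loop over Mgl2 was called in all 4 libraries, and the arcs that end at the gene were called in the hCG libraries.

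Other myeloid receptors had loops that did not follow the groups. Cx3cr1, the fractalkine receptor of monocytes and macrophages, lies at chr9:120048683-120068296 on the minus strand and had a loop of 40 to 45 kb. Its start of transcription lay inside the anchor in PMSG replicate 1 and 1705 bp from the anchor in both hCG libraries. The loop had 28 contacts against 9.11 expected in PMSG replicate 1 (ratio 3.07, exact Poisson 95% interval 2.04 to 4.44), 18 against 3.81 in hCG replicate 1 (4.72, 2.80 to 7.46) and 29 against 5.60 in hCG replicate 2 (5.18, 3.47 to 7.44). It was not called in PMSG replicate 2, the list with the fewest loops, where the nearest anchor was 18683 bp away. The intervals of the 3 ratios overlapped. Its far anchor held an end of Xirp1, a gene of striated muscle, in PMSG replicate 1 and hCG replicate 1. Without PMSG replicate 1 the loop would count as hCG-only. With a match distance of 50 kb Cx3cr1 was at a loop of all 4 libraries, as 52.7% of all genes with a loop were. A loop of 60 to 70 kb passed over Cx3cr1 to an end of Ccr8. It had 78 contacts against 23.5 expected in PMSG replicate 1 (ratio 3.32), 45 against 10.3 in PMSG replicate 2 (4.36) and 35 against 11.2 in hCG replicate 1 (3.13).

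Lyz2, the lysozyme of macrophages and neutrophils (chr10:117277541-117282272, minus strand), was at a PMSG-only loop with no gene end at the far anchor. It had 85 contacts against 38.6 expected in PMSG replicate 1 (ratio 2.20, 1.76 to 2.72, a 25 kb bin) and 25 against 6.02 in PMSG replicate 2 (4.15, 2.69 to 6.13, a 10 kb bin). The spans were 175 and 160 kb. The anchor of PMSG replicate 2, chr10:117270001-117280000, held the transcript end of Lyz2. The other end of the gene lay outside that anchor, within 2.5 kb of it. In PMSG replicate 1 the gene lay just past the limit. The PMSG-only call rests on matching calls from bins of unequal size. It was lost with a match distance of 10 or 50 kb, at an FDR of 0.01 and with lists of equal length. It was also lost with the gene end at the anchor in 2 libraries and without the 25 kb bins.

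Fcgr1, the high-affinity receptor for immunoglobulin G, had its transcript end at an anchor in PMSG replicate 1 (31 contacts against 8.34 expected, ratio 3.72, span 220 kb) and in hCG replicate 2 (32 against 8.32, ratio 3.84, span 160 kb). The near anchor was the same bin, chr3:96280001-96290000, and the far anchors lay 60 kb apart, so these were counted as 2 loops. Fcer1g, the signalling chain shared by several Fc receptors, was at a loop of all 4 libraries, but its end lay within 2.5 kb of the anchor in hCG replicate 1 alone, where the bin was 10 kb (57 against 11.8, ratio 4.84). In the other 3 libraries the 5 kb anchor stopped 4572 bp short of Fcer1g, with 36 against 7.29, 20 against 2.86 and 32 against 4.58 contacts. In all 4 libraries that anchor held ends of Apoa2, Nr1i3 and Tomm40l, and the far anchor held an end of Cfap126. The call at Fcer1g thus came with a wider bin.

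Cd68, a lysosomal glycoprotein of macrophages, and Cd14, the co-receptor for bacterial lipopolysaccharide, had a loop in hCG replicate 1 alone, each in a 25 kb bin that held several genes. Cd68 shared its anchor with Eif4a1, Fxr2, Mpdu1, Senp3 and Sox15 (99 contacts against 50.2 expected, ratio 1.97), and calls of the same distinct loop in PMSG replicate 1 and hCG replicate 2 ended 13831 bp from it. The Cd14 loop spanned 175 kb (81 against 31.9, ratio 2.54), and in PMSG replicate 1 an anchor lay 3186 bp from the gene. Mrc1, the macrophage mannose receptor, had a loop of 350 kb in PMSG replicate 2 alone (48 against 17.99, ratio 2.67), whose far anchor lay within Cacnb2. The partner genes of loops outside the hCG-only, PMSG-only and all-library classes were named after their values were seen.

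The complement genes C1qa, C1qb and C1qc encode the chains of C1q, which starts the classical complement pathway and in tissues comes largely from macrophages. They lie side by side on chromosome 4. C1qa (chr4:136895916-136898844) was at 3 distinct loops. One, called in all 4 libraries with spans of 150 to 180 kb, had 22 contacts against 4.46 expected in PMSG replicate 1, 25 against 4.63 in PMSG replicate 2, 27 against 5.94 in hCG replicate 1 and 110 against 45.8 in hCG replicate 2, the last in a 25 kb bin. Its ratios of 4.93, 5.40, 4.55 and 2.40 were lower in both hCG libraries, though they come from bins of 5, 10, 10 and 25 kb and were not tested. The exact Poisson 95% interval of hCG replicate 2 (1.97 to 2.89) lay below those of the other 3 libraries, and those 3 overlapped. C1qa lay at this anchor in 3 libraries and 6157 bp from it in PMSG replicate 1, and C1qc lay at it in PMSG replicate 2 alone.

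A second loop of C1qa, of 80 to 85 kb, was called in both hCG libraries, with 15 contacts against 2.64 expected (ratio 5.69) and 42 against 14.4 (2.93). At a match distance of 20 kb it was merged with a loop of 50 kb from Epha8, an ephrin receptor gene, to Zbtb40, a zinc-finger gene, which PMSG replicates 1 and 2 and hCG replicate 2 had, and so counted as called in all 4 libraries. At 10 kb, and when the anchors had to overlap, C1qa was counted at an hCG-only loop. That count needed the hCG replicate 1 call of 15 contacts, whose largest q-value was 0.076, where the largest of any call was 0.0994. The third loop, of 400 kb toward Cdc42 and Wnt4, was in PMSG replicate 1 alone (80 against 38.7, ratio 2.07). C1qb had no loop, and its nearest anchor lay 3801 bp away, in PMSG replicate 2.

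Of the genes of antigen presentation, Ciita and H2-Ab1 had loops, in PMSG replicate 1 alone. Ciita, the master activator of MHC class II genes, had a loop of 250 kb to Emp2 (28 contacts against 5.07 expected, ratio 5.53) and one of 450 kb (41 against 12.8, ratio 3.20). A call in hCG replicate 2 matched the 250 kb loop (49 against 20.1, ratio 2.44), with its anchor inside Ciita but 6064 bp from the end of the gene. H2-Ab1, a chain of the MHC class II molecule, had a loop of 80 kb to H2-Eb2, another class II gene (45 against 16.6, ratio 2.71). Its partner chain H2-Aa and the invariant chain Cd74 had none.

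Of the transcription factors, Spi1 (chr2:91082374-91115759), which encodes PU.1, the factor that drives myeloid and B cell development, had the same loop in all 4 libraries. It ran 75 to 85 kb from the higher-coordinate end of Spi1 to a site inside Nr1h3, the gene of the oxysterol receptor LXR alpha. In PMSG replicate 1 and hCG replicate 1 the anchor at Spi1 also held an end of Mybpc3. There were 42 contacts against 7.34 expected in PMSG replicate 1 (ratio 5.72, exact Poisson 95% interval 4.12 to 7.73), 21 against 3.05 in PMSG replicate 2 (6.88, 4.26 to 10.5), 17 against 2.78 in hCG replicate 1 (6.12, 3.57 to 9.80) and 21 against 4.29 in hCG replicate 2 (4.90, 3.03 to 7.49). The intervals of all 4 overlapped. At an FDR of 0.01 the calls of both hCG libraries were lost (largest q-values 0.0136 and 0.0250) and Spi1 counted as PMSG-only, and when anchors had to overlap it was at no loop of all 4 libraries. Further loops of 120 kb to Ddb2 (47 against 13.4, ratio 3.50) and of 370 kb into Lrp4 (24 against 6.37, ratio 3.77) were in hCG replicate 2 alone.

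Ikzf1, the lymphoid factor Ikaros (chr11:11684962-11772930, plus strand), had its transcript end 2071 bp from an anchor in 3 libraries. PMSG replicate 2 had a loop of 300 kb (64 contacts against 24.7 expected, ratio 2.59). hCG replicates 1 and 2 had a loop of 325 kb toward Spata48 and Zpbp (63 against 16.2, ratio 3.88, and 56 against 17.5, ratio 3.19). All of these anchors were 25 kb bins that also held an end of Fignl1. The far anchors of PMSG replicate 2 and of the hCG libraries were neighbouring 25 kb bins, whose midpoints cannot match within 20 kb. With a match distance of 50 kb Ikzf1 was at a loop of all 4 libraries. In PMSG replicate 1 the matching call of 320 kb, in a 10 kb bin (23 against 5.10, ratio 4.51), lay 7071 bp from Ikzf1.

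Both B cell genes had a loop. The 5 T cell genes (Cd3e and Cd3g of the T cell receptor complex, the co-receptors Cd4 and Cd8a, and the kinase Lck) had none. This difference was not tested, and 42.2% of all protein-coding genes had a loop. The second leukocyte list, given below, did hold T cell genes with a loop, such as Cd247, Cd2, Zap70 and Gata3. Cd79a, a signalling chain of the B cell receptor, had one of 60 kb in hCG replicate 1 alone (39 contacts against 9.64 expected, ratio 4.05), at an anchor shared with Arhgef1. Blk, a B cell kinase of the Src family (chr14:63372837-63417187), had 3 distinct loops, all from its lower-coordinate end. This was the marker with a loop of every class.

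The loop of Blk in all 4 libraries joined it to a site 305 to 315 kb away with no gene end. It had 21 contacts against 3.43 expected in PMSG replicate 1 (ratio 6.11, exact Poisson 95% interval 3.78 to 9.35), 14 against 1.62 in PMSG replicate 2 (8.63, 4.72 to 14.5), 18 against 1.88 in hCG replicate 1 (9.56, 5.67 to 15.1) and 15 against 2.45 in hCG replicate 2 (6.12, 3.42 to 10.1). No library stood apart, since all of these intervals overlapped. At an FDR of 0.01 it was no longer called in all 4 libraries, nor was it when anchors had to overlap. Loops from Blk to Gata4, a transcription factor gene of granulosa cells, ended at different ends of Gata4 in the groups. The hCG-only loop, from the anchor of the long loop to the end of Gata4 near Neil2, a DNA repair gene, had ratios of 9.70 (5.65 to 15.5) and 7.42 (4.40 to 11.7). The PMSG-only loop, to the other end of Gata4, had ratios of 2.53 (1.84 to 3.39) and 2.33 (1.88 to 2.85), in wider bins, and its anchor in PMSG replicate 1 was the neighbouring bin, 2837 bp from Blk. The hCG-only loop was lost when the anchors had to overlap. The PMSG-only loop was lost with a match distance of 10 kb, at an FDR of 0.01 and with lists of equal length. It was also lost with the gene end at the anchor in 2 libraries and without the 25 kb bins. A further loop of all 4 libraries left from inside Blk toward Fam167a, its neighbour, with ratios of 5.49, 6.21, 5.93 and 5.82.

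**Figure D4:**
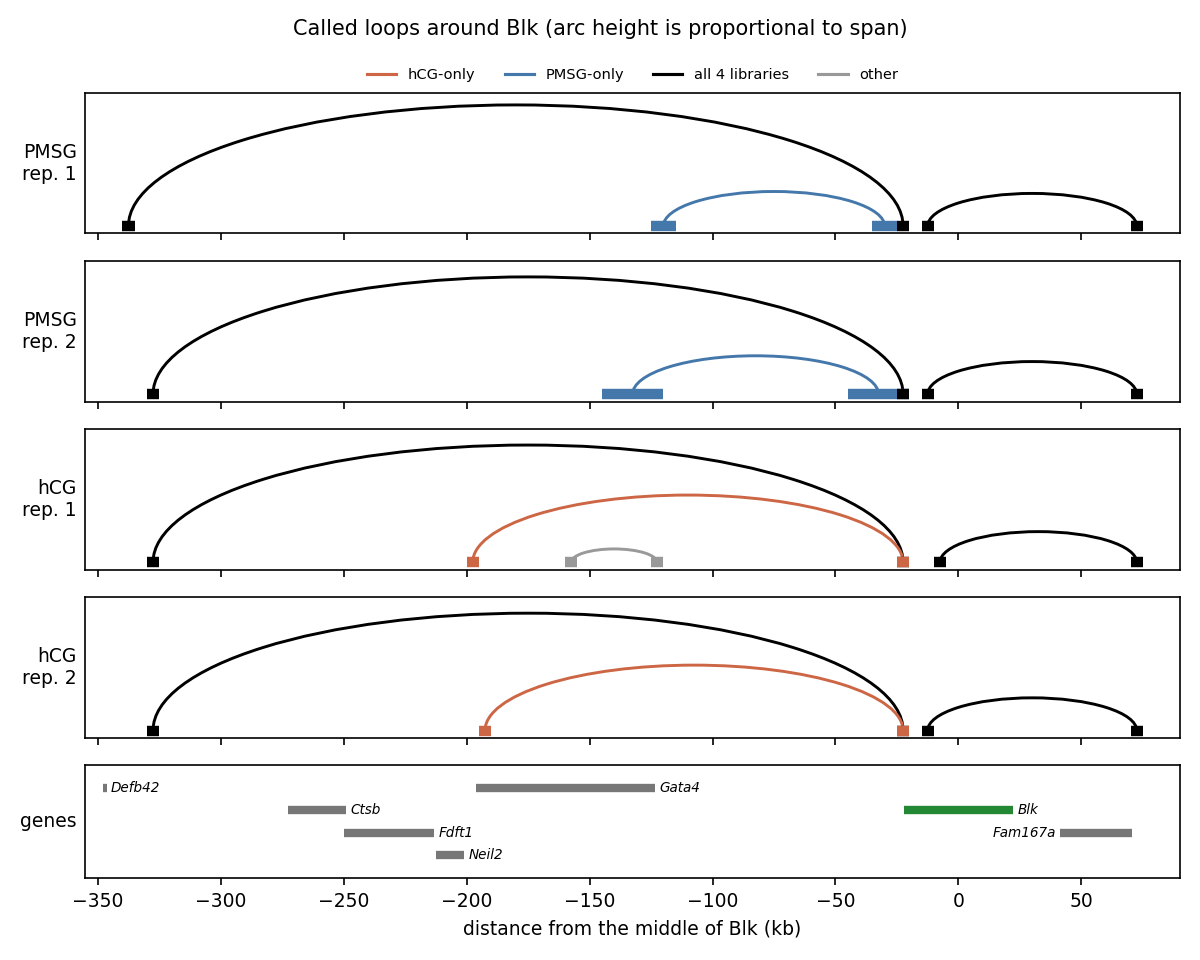
Called loops around Blk in each library, drawn as arcs between anchors (thick bars), with protein-coding genes below. The horizontal axis is the distance from the middle of Blk in kb, and arc height follows the span. The long loop and the loop toward Fam167a were called in all 4 libraries. The hCG-only and the PMSG-only loop to Gata4 were called at different ends of that gene. The PMSG-only calls came from wider bins, and in PMSG replicate 1 the anchor lay 2837 bp from Blk. A pixel that was not called has no count, so a change between the groups was not tested.

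Where the same loop was called in all 4 libraries, its strength can be compared between the groups. At the 435 pixels called in the same bins in all 4 libraries, edgeR's quasi-likelihood test on the observed counts, with the donut expectation as offset, called 0 (0.0%) after Benjamini-Hochberg adjustment, with 29 at an unadjusted p under 0.05, and DESeq2 called 0, with 1. Leaving out 1 library gave 3 calls without PMSG replicate 2, 1 without hCG replicate 1 and 2 without hCG replicate 2. None of the 435 pixels was at a marker. In a wider set of 1366 loops matched at 1 bin size, which was added after the data were seen, edgeR called 0 (0.0%), with 91 at an unadjusted p under 0.05, and DESeq2 called 0, with 5. Blk and Spi1 were the markers in it. The long Blk loop had a log2 change, hCG over PMSG, of 0.14 (SE 0.315, 95% interval -0.53 to 0.80, edgeR adjusted p = 0.955). The Spi1 loop had -0.17 (SE 0.275, 95% interval -0.75 to 0.41, edgeR adjusted p = 0.940). The median of all 1366 was 0.15. Neither loop differed beyond its error, and the intervals leave room for changes in either direction.

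**Figure D5:**
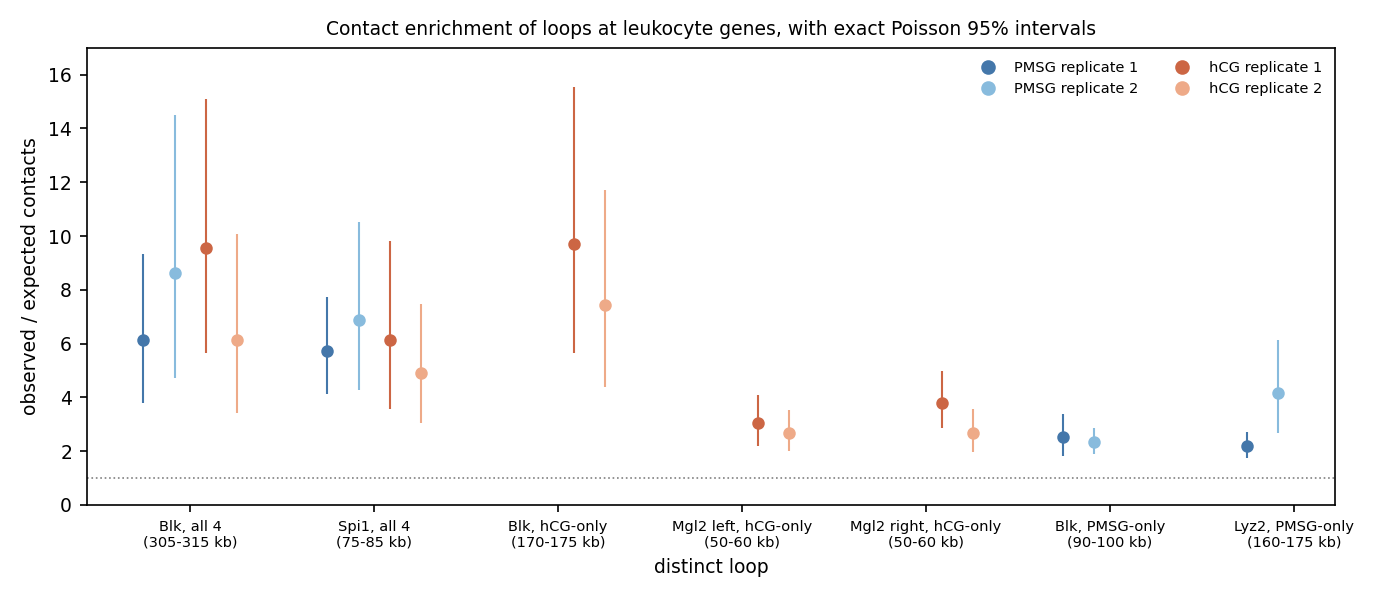
Observed over expected contacts (vertical axis) of 7 distinct loops at leukocyte markers, with exact Poisson 95% intervals that cover counting error only. Points are single libraries, and the spans are under each loop; a library with no point has no call there. The intervals of the 4 libraries overlap at the loops of Blk and Spi1 that were called in all of them, and the dotted line marks a ratio of 1.

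The 16 markers without a loop were Ptprc, the phosphatase found on all leukocytes; Csf1r, the receptor for the macrophage growth factor; Adgre1, Itgam, Itgax, Tyrobp, Laptm5, Ccr2, Cd74, H2-Aa, C1qb and the 5 T cell genes. Their nearest anchor in any library lay between 3.801 kb (C1qb) and 331.918 kb (Ccr2, the receptor of inflammatory monocytes), with a median of 13.67 kb, and was within 15 kb for 9 of them. A loop passed over the whole gene in at least 1 library for 10. Tyrobp, the adaptor of many myeloid receptors, lay 157.419 kb from any anchor. Laptm5, a lysosomal protein of blood cells, lay 3.853 kb from an anchor in both PMSG libraries. An anchor lay inside the gene in 2 cases, at Ptprc in PMSG replicate 2 and hCG replicate 1 and at Itgam, an integrin of myeloid cells, in all 4 libraries.

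The markers with a loop were short genes, with a median length of 6.805 kb, and those without had a median of 16.03 kb. Among all protein-coding genes the order was the other way, at 23.577 kb with a loop and 13.39 kb without. Each of the 41 pairs of a marker and a called loop lay in a bin of 5 kb (34.1%), 10 kb (41.5%) or 25 kb (24.4%), against 23.7%, 37.6% and 38.7% for all genes. Another gene's end lay at the same anchor in 36.6% of the pairs (45.4% for all genes), and a gene end lay at the far anchor in 39.0% (47.7% for all genes). Strand was known for 10 of the 16 markers with a loop. Cx3cr1 had its start of transcription alone at an anchor (3 calls), Fcgr1, Fcer1g, Cd79a, Ikzf1, Mgl2 and Mrc1 had the transcript end alone (11 calls), and Lyz2, Cd68, Mgl2 and C1qc had both (4 calls).

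A second list of leukocyte genes from textbook knowledge, of which 79 of 80 were placed, gave a similar share. A loop lay at 31 of them (39.2%), with 23 and 13 in PMSG replicates 1 and 2 and 15 and 20 in hCG replicates 1 and 2. Their loops per 1000 were 3.61, 2.76, 3.00 and 3.65, so here the groups overlapped. An hCG-only loop lay at 3 (Cd22, an inhibitory receptor of B cells, Gata3, a T cell factor, and Syk, a kinase below antigen and Fc receptors), which is 9.68% of the 31 against 8.31% of all genes with a loop. A PMSG-only loop lay at 1 (Cd79b, the partner chain of Cd79a), 3.23% against 5.46%. Loops of all 4 libraries lay at 8, 25.8% against 41.8%. Whether the 2 lists differ was not tested.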

How the data were processed

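Loop lists of chromatin loops of 4 libraries, 1 each, were analysed in groups taken from the sample titles. BWA, Juicer and mm10 are named in the submitters' processing notes, and per the file headers juicer_tools 1.22.01 wrote the lists. The caller's settings were not given in the sources used here. These deposited lists hold merged calls in 5, 10 and 25 kb bins, made in each library separately. Per the file headers, each gives the observed contact count of a pixel, not normalized, the expected contact signal of 4 neighbourhoods, and q-values, of which the largest was 0.0994 in the deposited lists. The authors' score of collapsed pixels was not used.

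The members and gene lists were chosen with earlier results of these data known. Gene ends came from a RefSeq table on GRCm38.p6; strand came from a RefSeq promoter table that held 21 of the 32 markers. Exons and introns were not assigned. Loops with both anchor midpoints within 20 kb, chained, were 1 distinct loop. Named genes were all markers with a loop and the other genes at their hCG-only and PMSG-only loops. The other genes at the 5 strongest marker loops of all 4 libraries were named too. Members of the second leukocyte list were named at hCG-only or PMSG-only loops. Its T cell genes at loops of all 4 libraries were named after their values were seen. Libraries were compared by exact permutation tests. Loop strength was tested with edgeR 4.0.16, with DESeq2 1.42.0 as an alternative, in R 4.3.3, and the steps were tested on simulated data. Other steps used Python 3.11.15, numpy 2.4.6, pandas 2.3.3, scipy 1.17.1 and matplotlib 3.10.9. Alternatives were other gene-end and match distances, an FDR of 0.01, lists cut to 6533 loops, and leaving out each library. Contacts may include PCR copies, so intervals cover counting error only.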

Additional observations from a re-analysis of the deposited data

How the results depend on the processing

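The number of markers with a loop in at least 1 library stayed between 12 and 18 (16 as reported) under all alternatives tried. The share of all protein-coding genes with a loop moved as well, from 30.4% in 5 and 10 kb bins alone to 53.7% within 10 kb (42.2% as reported). The difference in median span stayed negative. The difference in loops per 1000 was -0.105 when an anchor anywhere in the gene counted, and 0.495 to 0.679 when a library was left out. The difference in markers with a loop per library, 1.5 as reported, was -0.5 with the gene end inside the anchor, -1.5 within 10 kb, -0.5 with an anchor anywhere in the gene, and 0 to 3 when a library was left out. Markers at hCG-only loops were 2 as reported, where 8.31% of all genes with a loop had one. They were 1 (C1qa) when anchors had to overlap (9.38% of all genes with a loop). When a library was left out they were 2 to 6 (11.4% to 25.7%). Markers at PMSG-only loops were 2 as reported (5.46% of all genes with a loop). They were 1 (Spi1) at an FDR of 0.01 (6.11%) and 1 (Blk) with a match distance of 50 kb (4.87%). They were 0 with 10 kb (6.16%), with lists of equal length (5.58%) and with the gene end at the anchor in 2 libraries (4.19%). In 5 and 10 kb bins alone, an alternative chosen after seeing the data, they were 0 (4.14%). When a library was left out they were 2 to 4 (10.2% to 25.1%). Markers at loops of all 4 libraries were 5 as reported (41.8% of all genes with a loop). They were 2 at an FDR of 0.01 (25.9%), 3 with lists of equal length (40.8%) and 1 when anchors had to overlap (18.9%). They were 7 with a match distance of 50 kb (52.7%). They were 3 with the gene end at the anchor in 2 libraries (33.45%), and 4 to 7 when a library was left out (45.7% to 50.5%). Calls of loop strength by edgeR, 0 as reported, were 0 to 3 when a library was left out (0 without PMSG replicate 1, 3 without PMSG replicate 2, 1 without hCG replicate 1 and 2 without hCG replicate 2), where the lone library of a group is assumed to vary like the other group. The cause of these moves was not tested. With the replicate number as a block, edgeR called 0, with 17 at an unadjusted p under 0.05. Same-numbered libraries did not deviate together from their group means (r = -0.00804). With 2 libraries in a group both numbers must give the same r, so this is 1 check. No label says that the numbers pair the libraries. Library depth is not known from the lists, so a loop missing from a list, such as the shortest one (PMSG replicate 2), may lie below the caller's threshold.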
